A study of Mus musculus with 4 samples.

Results

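The mRNAs described here encode RNA-binding proteins that carry, store, silence or decay other mRNAs in the cytoplasm. They were taken by gene symbol from a list of 41 genes in the LARP, Y-box, Pur, FMRP, IGF2BP, Staufen, G3BP, FET, MBNL and PRRC2 families, together with 14 genes that have no paralog on the list. All 41 were among the 16537 genes of the table, and 38 of them were among the 11400 genes that averaged 1 TPM or more and entered the test. RNA was sequenced from YUMM1.7 cells, a mouse melanoma line built to carry activated *Braf* and inactivated *Cdkn2a*, among other changes, and labelled wildtype in every library. Cells were grown overnight on membranes with 1-µm pores coated underneath with fibronectin, and each replicate pooled 6 inserts. Cell bodies were scraped from the top, and protrusions, which had grown through the pores, were lysed from the cleaned membrane, giving 2 libraries of each fraction. The question put to the members is whether the mRNAs of RNA-binding proteins lie more in protrusions or in cell bodies, and whether paralogs of 1 family do so alike.

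RNA-binding proteins of this kind assemble with mRNAs into particles that are moved along microtubules, held silent, and translated or degraded at their destination. Under stress or translational arrest many of them gather in stress granules and processing bodies, cytoplasmic bodies without a membrane. Paralogs within a family usually share their RNA-binding domains and can differ in which mRNAs they bind and in how much of each protein a cell makes.

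TPM, the unit of the levels below, scales reads by transcript length and by the library total, so levels can be set side by side between genes, and each is a share of the RNA of its fraction, not a number of molecules per cell. In such bulk samples, less of a compartment and less RNA per compartment cannot be told apart. Fold changes are on the log2(TPM + 0.5) scale, which understates changes of low genes, and a gene was called at a limma adjusted p (Benjamini-Hochberg over all 11400 genes) under 0.05. The 4 libraries held 25854947 to 30994908 reads assigned to genes, and the lowest member tested, *Stau2*, had at least 237 reads in every library. The labels call the replicates biological. With 2 per fraction, the p-values rest on each gene's spread between these 4 libraries, combined by limma with a spread estimated over all genes tested.

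As a check of the fractions, *Kif1c*, *Rab13*, *Net1* and *Cyb5r3*, mRNAs known from protrusions, summed to 355 and 365 TPM in cell bodies and to 1084 and 1189 TPM in protrusions. The nuclear RNAs *Malat1* and *Neat1* summed to 1934 and 2946 TPM in cell bodies against 1467 and 1492 TPM in protrusions. Of 10 melanocyte markers 5 were in the table and 1, *Mitf*, passed 1 TPM, at 5.12 to 6.17 TPM, while *Pmel*, a pigment granule gene, stayed at or under 0.0696 TPM. The 12 liver genes checked summed to 63.0 TPM in protrusions replicate 1 and to at most 3.26 TPM in the other libraries. Leukocyte markers summed to at most 0.346 TPM and endothelial markers to at most 0.128 TPM in any library, and 0 of 3 keratinocyte markers were in the table.

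Among the 38 members tested, 9 were higher in protrusions, 1 was lower and 28 were not called. The 9 are 23.7% of the members, beside 2.99% of all genes tested that were called higher, and the 1 is 2.63%, beside 4.25% of all genes called lower. The members were chosen with earlier results of these data known, so these shares describe the list and are no independent test. Those higher were *Prrc2a*, *Ybx3*, *Prrc2b*, *Khsrp*, *Purb*, *Larp1*, *Upf1*, *Ybx1* and *Igf2bp2*, and the lower one was *Larp4*. Their log2 fold changes ran from 0.67 to 1.43 on the higher side and were -0.72 for *Larp4*. Over the 38 members the median log2 fold change was 0.17, with 21 positive and 17 negative values, beside a median of -0.07 over all genes tested. The members' median level was 79.0 TPM, beside 20.9 TPM over all genes tested. The part of this difference in level in the shares called was not tested.

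Counted without a model, both protrusion libraries lay above both cell body libraries for 17 members (44.7%), where 26.4% of all genes tested did so. Both lay below for 13 members (34.2%), where 37% of all genes did, and the fractions overlapped for the remaining 8. With the replicate number as a block, 10 members were higher and 2 lower (backgrounds 8.08% and 13.3%), the additions being *Qk* and *Tardbp*. Without any 1 of the 4 libraries no member passed (limma). Leaving out protrusions replicate 1 left 0.123% of all genes higher and 1.26% lower, and leaving out any of the other 3 libraries left no gene of the 11400 past the threshold. At an unadjusted p under 0.05 these fits had 9 to 11 members higher (23.7% to 28.9%, beside 7.33% to 10.2% of all genes) and 2 to 6 lower (5.26% to 15.8%, beside 9.32% to 18.0%). Without protrusions replicate 1, the library with the liver RNAs, the log2 fold changes of the 9 ran from 0.62 to 1.45 and that of *Larp4* was -0.87.

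**Figure D1:**
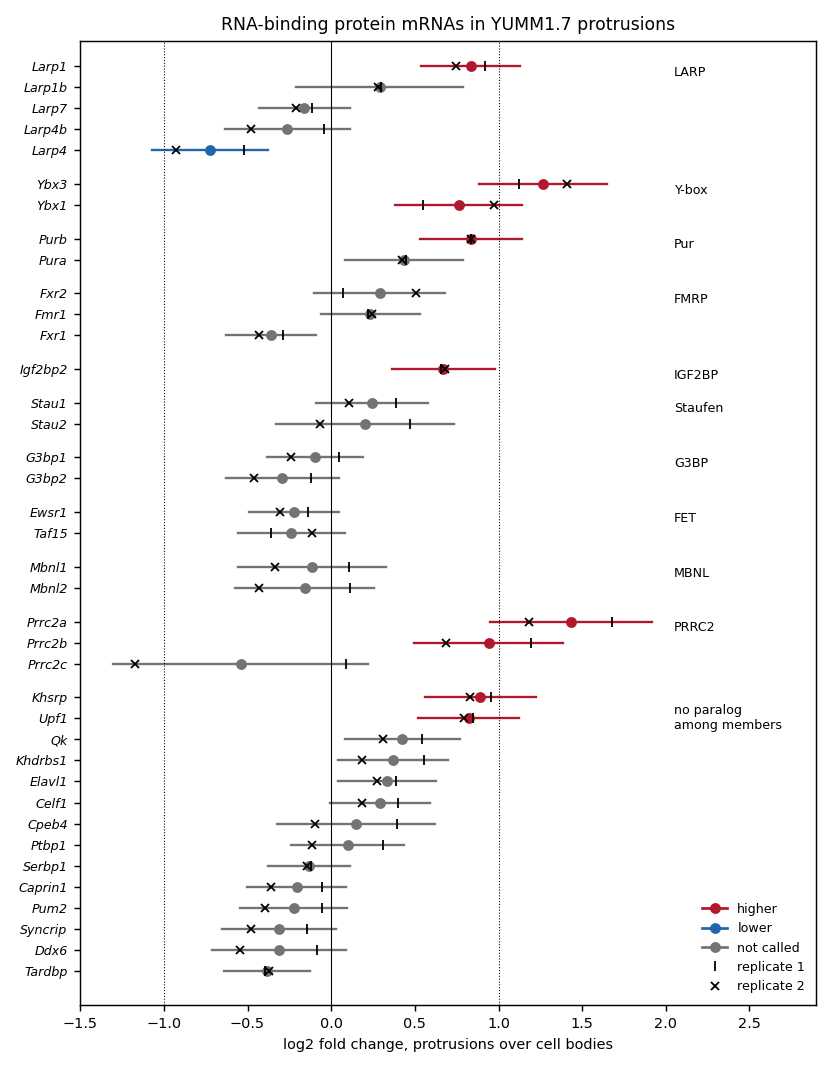
Protrusions against cell bodies as log2 fold change (x axis, on log2 of TPM + 0.5) for the 38 members tested, by family, with the mean (circle), its 95% confidence interval (line) and the change within replicates 1 and 2 (bar and cross). Red marks the 9 members higher, blue the 1 lower and gray the 28 not called, and dotted lines mark 2-fold; *Prrc2a* and *Ybx3* lie beyond 2-fold.

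The LARP family, proteins with a La motif, held both a higher and a lower member. *Larp1*, whose protein binds the capped 5′ ends of mRNAs for ribosomal proteins and translation factors, was at 35.9 and 39.6 TPM in cell bodies and at 68.2 and 66.8 TPM in protrusions. Both protrusion libraries stood clear of both cell body libraries, and the log2 fold change was 0.83 (SE 0.12, 95% interval 0.54 to 1.13, limma adjusted p = 0.0349). *Larp1* is transcribed from chr11:58009064-58062032 on the plus strand of mm10.

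*Larp4*, whose protein binds poly(A) tails and the poly(A)-binding protein, went the other way. It was at 102 and 111 TPM in cell bodies and at 71.2 and 58.0 TPM in protrusions. Both protrusion libraries lay below both cell body libraries, and the log2 fold change was -0.72 (SE 0.14, interval -1.07 to -0.38, limma adjusted p = 0.0445). After correction for GC content it was -0.45 and was not called (limma adjusted p = 0.0788). The gene lies at chr15:99970065-100016358, plus strand.

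The other LARP mRNAs were not called. *Larp4b*, the close paralog of *Larp4*, was at 63.9 and 68.1 TPM in cell bodies and 61.9 and 48.6 TPM in protrusions, a log2 fold change of -0.26 (interval -0.64 to 0.11). *Larp7*, which encodes the nuclear protein that holds 7SK RNA, was at 80.2 and 80.6 TPM against 74.0 and 69.7 TPM, a log2 fold change of -0.16 (interval -0.43 to 0.11). In both genes the protrusion values lay below the cell body values, as in 37% of all genes tested, and the intervals covered 0. *Larp1b*, the paralog of *Larp1*, was at 15.8 and 12.2 TPM in cell bodies and 19.6 and 14.9 TPM in protrusions, so its fractions overlapped (log2 fold change 0.29, interval -0.21 to 0.79). *Larp6* had 0 to 4 reads per library and at most 0.134 TPM, and was not tested.

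Set against each other, *Larp1* and *Larp4* differed by 1.56 in log2 fold change (95% interval 1.102 to 2.01), by 1.44 within replicate 1 and 1.67 within replicate 2. *Larp1* also differed from *Larp4b* by 1.097 (interval 0.62 to 1.57) and from *Larp7* by 1.00 (interval 0.60 to 1.40). After correction for GC content the differences of *Larp1* from *Larp4*, *Larp4b* and *Larp7* were 1.18, 0.87 and 0.79. *Larp1b* exceeded *Larp4* by 1.01 (interval 0.40 to 1.62), or by 0.55 after correction for GC content. *Larp4* fell short of *Larp7*, a difference of -0.56 (interval -1.002 to -0.12), or of -0.39 after that correction. The close paralogs were not separated: *Larp1* and *Larp1b* differed by 0.54 with an interval of -0.04 to 1.12, and *Larp4* and *Larp4b* by -0.46 with an interval of -0.97 to 0.05. With the block both of these intervals moved off 0, to 0.07 to 1.02 and to -0.90 to -0.01, as did that of *Larp1b* against *Larp4b*, from -0.07 to 1.18 to 0.06 to 1.04.

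The makeup of the family differed between the fractions. *Larp1* made up 12.03% and 12.7% of the summed LARP TPM in cell bodies and 23.1% and 25.9% in protrusions, while *Larp4* went from 34.3% and 35.5% to 24.1% and 22.5%. The sum itself was 298 and 311 TPM in cell bodies and 295 and 258 TPM in protrusions. *Larp4* was the most abundant LARP mRNA in both cell body libraries, and in protrusions *Larp1*, *Larp4* and *Larp7* lay within 22.5% to 27.0% of the sum.

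**Figure D2:**
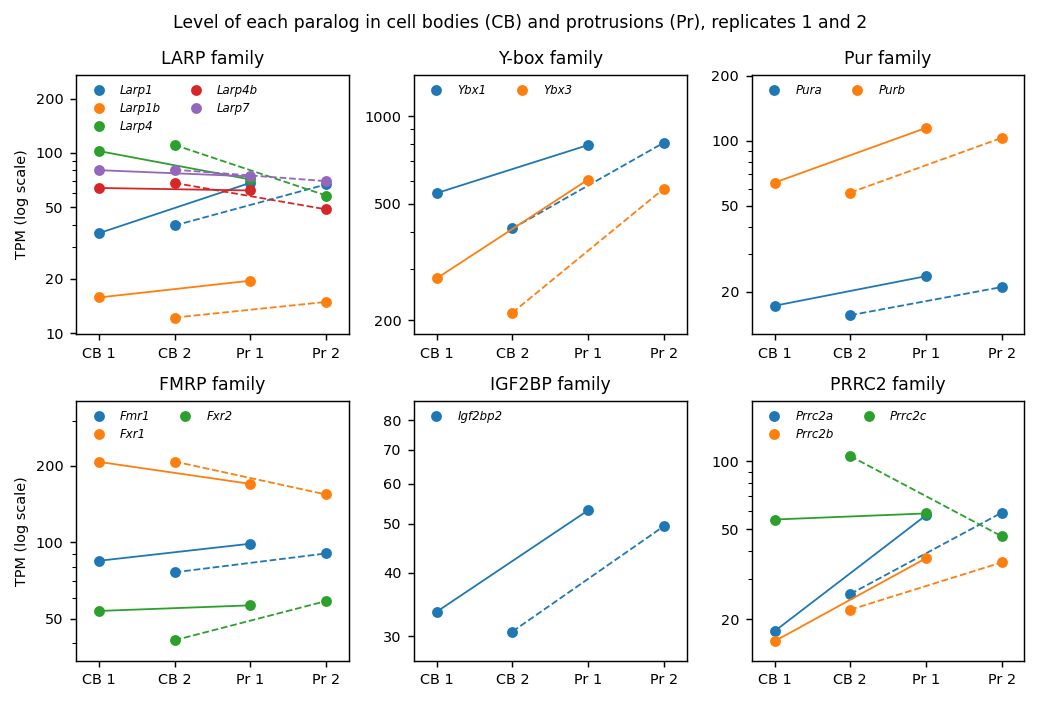
TPM (y axis, log scale) of the tested members of 6 families in cell bodies (CB) and protrusions (Pr), replicates 1 and 2, with solid lines joining replicate 1 and dashed lines replicate 2. *Larp1* and *Larp4* cross or meet between the fractions, *Ybx1* and *Ybx3* both lie higher in protrusions, and *Prrc2a* climbs from under *Prrc2c* in cell bodies to its level in protrusions.

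Both Y-box mRNAs were higher in protrusions. Y-box proteins have a cold shock domain and coat mRNAs in the cytoplasm, where they are among the main proteins of untranslated particles. *Ybx3* was at 278 and 212 TPM in cell bodies and at 606 and 564 TPM in protrusions. Each protrusion value was more than 2 times each cell body value, and the log2 fold change was 1.27 (SE 0.15, interval 0.89 to 1.65, limma adjusted p = 0.0342), a 2.40-fold difference. The gene lies at chr6:131364858-131388450, minus strand.

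*Ybx1*, the most abundant member in both fractions, was at 545 and 412 TPM in cell bodies and at 796 and 811 TPM in protrusions. The cell body values were spread more than the protrusion values and did not reach them, and the log2 fold change was 0.76 (SE 0.15, interval 0.38 to 1.14, limma adjusted p = 0.0467). Centring each library on its median gene put *Ybx1* just past the threshold (limma adjusted p = 0.0502). *Ybx1* (chr4:119277327-119294513, minus strand) has processed pseudogenes in the mouse genome with near-identical sequence, so its level is uncertain to the extent that reads were shared with them.

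*Ybx1* and *Ybx3* differed in log2 fold change by -0.50, with an interval of -1.04 to 0.03 that covered 0 and, with the block, of -0.91 to -0.10. *Ybx3* made up 33.8% and 34.0% of the pair's TPM in cell bodies and 43.2% and 41.0% in protrusions. The pair summed to 823 and 624 TPM in cell bodies and to 1402 and 1375 TPM in protrusions, the highest sum of the families in both fractions.

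*Purb* was higher in protrusions, and *Pura* had a smaller positive value that was not called. Their products bind purine-rich single-stranded DNA and RNA and are found in the RNA granules that kinesin carries along dendrites. *Purb* was at 64.1 and 57.6 TPM in cell bodies and at 115 and 103 TPM in protrusions. The change was 0.84 on the log2 scale within each of the replicates, and 0.84 in the fit (SE 0.12, interval 0.53 to 1.14, limma adjusted p = 0.0349). *Pura* was at 17.2 and 15.6 TPM against 23.6 and 21.0 TPM, without overlap, a log2 fold change of 0.43 (interval 0.08 to 0.79, limma adjusted p = 0.110). With GC correction and the block together, where 8.59% of all genes were called higher, *Pura* was called higher (limma adjusted p = 0.0126). The difference of *Pura* from *Purb* was -0.40, with an interval of -0.87 to 0.06. *Purb* (chr11:6467599-6476076, minus strand) held 78.7% to 78.8% of the pair's TPM in cell bodies and 83.0% to 83.1% in protrusions.

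The FMRP family split by sign, with no member called. *Fmr1*, the gene silenced in fragile X syndrome, encodes a repressor of translation carried in neuronal granules, and *Fxr1* and *Fxr2* encode its paralogs. *Fmr1* was at 84.5 and 76.1 TPM in cell bodies and 98.6 and 90.3 TPM in protrusions, a log2 fold change of 0.23 (interval -0.06 to 0.53). *Fxr1* was at 207 and 208 TPM against 170 and 154 TPM, a log2 fold change of -0.36 (interval -0.63 to -0.09, limma adjusted p = 0.0930). *Fxr2* was at 53.6 and 41.1 TPM against 56.4 and 58.6 TPM, a log2 fold change of 0.29 (interval -0.10 to 0.68). For these 3 genes the fractions did not overlap, with *Fmr1* and *Fxr2* above and *Fxr1* below in protrusions. Over all genes tested, 26.4% lay above and 37% below in this way. After correction for GC content the log2 fold changes were 0.50, -0.10 and 0.03 for *Fmr1*, *Fxr1* and *Fxr2*. With that correction and the block together, where 8.59% of all genes were called higher, *Fmr1* was called (limma adjusted p = 0.00909).

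The intervals of the paralog differences separated *Fxr1* from both others. *Fmr1* exceeded *Fxr1* by 0.59 (interval 0.19 to 0.99), and *Fxr1* differed from *Fxr2* by -0.65 (interval -1.12 to -0.18), while *Fmr1* and *Fxr2* differed by -0.06 (interval -0.55 to 0.43). *Fxr1* went from 60.0% and 64.0% of the family's TPM in cell bodies to 52.3% and 50.9% in protrusions and stayed the most abundant of the 3. After correction for GC content the difference of *Fxr1* from *Fxr2* shrank to -0.13, while that of *Fmr1* from *Fxr1* was 0.60.

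A single IGF2BP paralog carried nearly all of its family. IGF2BP proteins bind and stabilize mRNAs, and IGF2BP1 is known as the zipcode-binding protein that takes beta-actin mRNA to the leading edge. *Igf2bp2* made up 99.5% to 99.8% of the family's TPM in the 4 libraries, and *Igf2bp1* and *Igf2bp3* stayed at or under 0.110 and 0.0511 TPM, with 8 to 12 and 1 to 3 reads per library. *Igf2bp2* was at 33.5 and 30.6 TPM in cell bodies and at 53.2 and 49.5 TPM in protrusions. Its replicates differed little, and the log2 fold change was 0.67 (SE 0.12, interval 0.36 to 0.98, limma adjusted p = 0.0421). The gene lies at chr16:22059009-22163299, minus strand.

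In the PRRC2 family 2 mRNAs were higher and the third had the widest spread of all members. PRRC2 proteins are large and largely disordered proteins found with translation initiation factors and stress granules. *Prrc2a* was at 17.7 and 25.8 TPM in cell bodies and at 57.7 and 59.3 TPM in protrusions. This was the highest log2 fold change of the 38 members, 1.43 (SE 0.20, interval 0.95 to 1.91, limma adjusted p = 0.0349), or 2.70-fold. *Prrc2b* was at 15.9 and 22.0 TPM against 37.2 and 35.7 TPM, a log2 fold change of 0.94 (SE 0.18, interval 0.49 to 1.39, limma adjusted p = 0.0440). In both genes cell bodies replicate 1 was the lowest library, and the fractions did not overlap. The genes lie at chr17:35149086-35164877 (minus strand) and chr2:32151148-32234537 (plus strand).

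*Prrc2c* was at 55.3 and 106 TPM in cell bodies and at 58.8 and 46.6 TPM in protrusions. Cell bodies replicate 2 stood above the other 3 libraries, and the log2 fold change was 0.09 within replicate 1 and -1.17 within replicate 2 (fit -0.54, SE 0.31, interval -1.30 to 0.22). Without cell bodies replicate 2 it was -0.08, and without cell bodies replicate 1 it was -1.01. Cell bodies replicate 2 was also the library with the most *Malat1* and *Neat1*, 2946 TPM against 1934 TPM in replicate 1. The part of these nuclear RNAs in the result was not tested.

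*Prrc2a* differed from *Prrc2c* by 1.97 in log2 fold change (interval 1.07 to 2.88), the largest of the 22 paralog differences, with 1.59 within replicate 1 and 2.36 within replicate 2. *Prrc2b* differed from *Prrc2c* by 1.48 (interval 0.60 to 2.37). After correction for GC content the differences of *Prrc2a* and *Prrc2b* from *Prrc2c* were 1.56 and 1.22. *Prrc2a* and *Prrc2b* differed by 0.49 with an interval of -0.17 to 1.15. In cell bodies *Prrc2c* made up 62.2% and 68.8% of the family's TPM and *Prrc2a* 19.9% and 16.8%, and in protrusions they made up 38.3% and 32.9% against 37.5% and 41.9%.

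**Figure D3:**
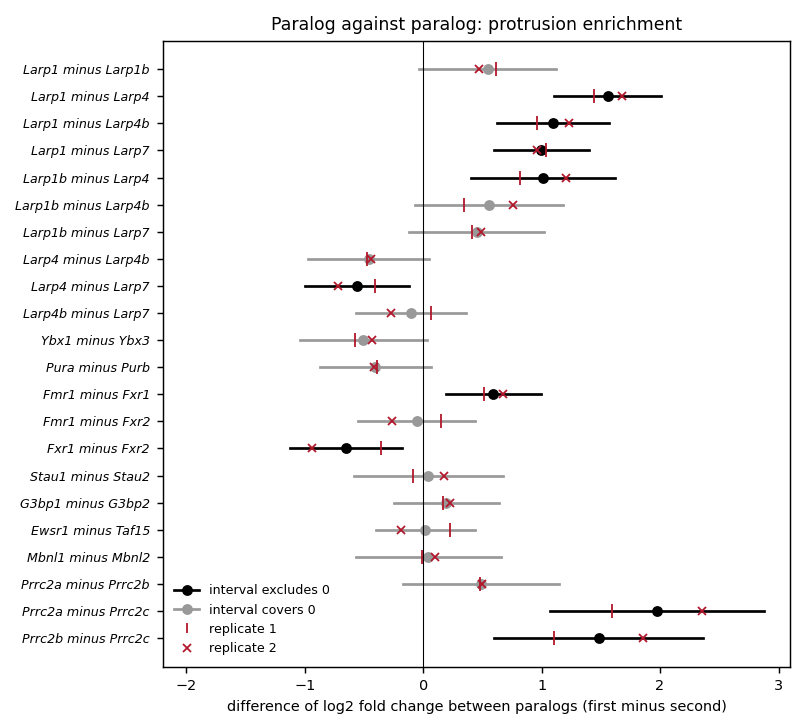
Difference of log2 fold change between paralogs (x axis, first gene minus second) for all 22 pairs, with 95% confidence interval and the difference within replicates 1 and 2 (red bar and cross). The interval excludes 0 in 9 pairs (black) and covers it in 13 (gray), and the PRRC2 pairs with *Prrc2c* and the pair of *Larp1* and *Larp4* reach the largest differences.

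Over the 22 pairs, 9 intervals excluded 0, of which 5 were LARP pairs, and 17 pairs had the same sign in both replicates. The shares for pairs of unrelated genes were not computed, so these counts do not tell whether paralogs differ more than other genes. With the block 13 excluded 0. These intervals are without correction for GC content, after which only the differences were computed. The pairs of a family share genes and are not independent of each other, and the intervals, which take the errors of both genes as independent, are not adjusted for the 22 pairs. An exact permutation test of the ratio of paralogs, 2 libraries against 2, cannot give a p below 0.333, so it passed for no pair.

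The G3BP, Staufen, FET and MBNL families had no member called, and their paralogs lay close together. *G3bp1* and *G3bp2* encode the proteins around which stress granules form. *G3bp1*, at 278 and 310 TPM in cell bodies and 287 and 263 TPM in protrusions, had a log2 fold change of -0.10 (interval -0.38 to 0.19), and its fractions overlapped. *G3bp2*, at 99.8 and 123 TPM against 91.6 and 89.1 TPM, had a log2 fold change of -0.29 (interval -0.63 to 0.05). *G3bp1* held 71.6% to 75.8% of the pair's TPM in the 4 libraries, and the difference of the pair was 0.20 (interval -0.25 to 0.64).

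*Stau1* and *Stau2* encode double-stranded RNA-binding proteins of transport granules. *Stau1* was at 26.3 and 30.7 TPM in cell bodies and 34.5 and 33.1 TPM in protrusions (log2 fold change 0.25, interval -0.09 to 0.58). *Stau2* was at 5.32 and 7.71 TPM against 7.56 and 7.34 TPM, with overlap (0.20, interval -0.33 to 0.74). The log2 fold changes of the Staufen pair differed by 0.04, with an interval of -0.59 to 0.67.

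*Ewsr1* and *Taf15*, of the FET family of mostly nuclear RNA-binding proteins, had log2 fold changes of -0.22 (interval -0.49 to 0.05) and -0.24 (interval -0.56 to 0.08). *Ewsr1* was at 195 and 199 TPM in cell bodies and 177 and 160 TPM in protrusions, and *Taf15* at 49.2 and 48.2 TPM against 38.2 and 44.4 TPM. Both were below their cell body levels in both protrusion libraries, as were 37% of all genes tested. Their log2 fold changes differed by 0.02 (interval -0.40 to 0.44).

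*Mbnl1* and *Mbnl2* encode muscleblind proteins, which regulate splicing and take part in mRNA localization. *Mbnl1* was at 240 and 229 TPM in cell bodies and 258 and 181 TPM in protrusions, a log2 fold change of -0.11 (interval -0.56 to 0.33). *Mbnl2* was at 132 and 180 TPM against 142 and 133 TPM, a log2 fold change of -0.16 (interval -0.58 to 0.26). Both overlapped between fractions and had positive values within replicate 1 and negative ones within replicate 2, and both signs turned after GC correction. Their log2 fold changes differed by 0.04 (interval -0.57 to 0.65). For these 4 pairs the intervals of the difference exclude a 2-fold gap between paralogs.

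Of the 14 genes with no paralog on the list, 2 were higher (14.3%, beside 2.99% of all genes tested) and 0 lower (beside 4.25%). *Khsrp*, whose KH-domain protein brings AU-rich mRNAs to decay, was at 35.6 and 41.9 TPM in cell bodies and at 69.4 and 75.0 TPM in protrusions (log2 fold change 0.89, SE 0.13, interval 0.56 to 1.22, limma adjusted p = 0.0349). *Upf1*, which encodes the helicase of nonsense-mediated decay, was at 19.9 and 20.6 TPM against 36.3 and 36.2 TPM (0.82, SE 0.12, interval 0.52 to 1.12, limma adjusted p = 0.0349). In both genes the gap between the fractions was several times the spread within them. *Khsrp* lies at chr17:57021049-57031507 and *Upf1* at chr8:70331522-70353273, both on the minus strand.

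*Qk* encodes quaking, a STAR-domain protein of splicing and mRNA stability. It was at 63.9 and 61.3 TPM in cell bodies and at 93.5 and 75.9 TPM in protrusions, without overlap. Its log2 fold change of 0.43 (interval 0.08 to 0.77) was not called (limma adjusted p = 0.109) and was called with the block (limma adjusted p = 0.0417). *Tardbp* encodes TDP-43, a mostly nuclear protein that also travels in axonal granules. It was at 134 and 130 TPM against 101 and 100 TPM, and its log2 fold change of -0.38 (interval -0.64 to -0.13) had a limma adjusted p of 0.0760, and of 0.0456 with the block.

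The next lowest were *Syncrip*, which encodes a heterogeneous nuclear ribonucleoprotein of transport granules, and *Ddx6*, the helicase of processing bodies. *Syncrip* was at 163 and 165 TPM in cell bodies and 147 and 118 TPM in protrusions (log2 fold change -0.31, interval -0.65 to 0.03). *Ddx6* was at 81.3 and 109 TPM against 76.6 and 74.4 TPM (-0.31, interval -0.71 to 0.09). Neither was called, and in both the protrusion libraries lay below the cell body libraries, as in 37% of all genes tested. The other 8 genes without a paralog, *Caprin1*, *Khdrbs1*, *Elavl1*, *Pum2*, *Celf1*, *Ptbp1*, *Cpeb4* and *Serbp1*, had log2 fold changes from -0.23 to 0.37. None was called with or without the block. With GC correction and the block together, *Khdrbs1*, *Elavl1* and *Celf1* were called higher (limma adjusted p = 0.0101, 0.0196 and 0.0396). In that fit 8.59% of all genes were called higher.

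Other components of processing bodies, stress granules and transport particles were counted from a list of 40 names, of which 39 were in the table and tested. That list, too, was chosen with earlier results of these data known. Of these 2 were higher (5.13%, beside 2.99% of all genes) and 0 lower (beside 4.25%, limma), and the median log2 fold change was 0.05. At an unadjusted p under 0.05, 10 were higher (25.6%, beside 12.6% of all genes) and 6 lower (15.4%, beside 18.7%). With the block 6 were higher (15.4%, beside 8.08%) and 5 lower (12.8%, beside 13.3%). *Ago1*, an Argonaute protein gene, was at 11.3 and 11.6 TPM in cell bodies and 18.7 and 20.2 TPM in protrusions (log2 fold change 0.74, limma adjusted p = 0.0427). *Lsm14b*, which encodes a processing body protein, was at 47.6 and 51.5 TPM against 75.7 and 74.3 TPM (0.59, limma adjusted p = 0.0440). The next by p was *Ago2*, at 0.81 with a limma adjusted p of 0.0689, and of 0.00760 with the block. On the other side the smallest p belonged to *Ddx3x*, a helicase gene, at -0.46 (limma adjusted p = 0.0530), *Upf3b*, a partner of UPF1, at -0.50 (0.0680), and *Tia1*, a stress granule gene, at -0.49 (0.0891). With the block these 3 were called lower, at limma adjusted p of 0.0196, 0.0380 and 0.0440.

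The members called higher were mostly GC-rich. GC content was taken from the longest coding transcript of each gene. The 9 members higher had a median GC content of 56.2%, the 28 not called 43.4%, and *Larp4*, the lower one, 38.7%, beside 49.8% over all genes tested. *Purb* was the exception among the higher members, at 42.0%. Spearman's rho between GC content and log2 fold change was 0.56 over the 38 members and 0.38 over 11313 genes, given as a description across genes that share the same 4 libraries.

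When a loess curve of each library on GC content was subtracted, 4 members were higher and 0 lower (limma, backgrounds 1.62% and 2.66%), with 15 higher and 2 lower at an unadjusted p under 0.05 (39.5% and 5.26%, beside 11.5% and 17.2% of all genes). The 4 were *Larp1*, *Purb*, *Qk* and *Ybx3*, with *Purb* at 1.03 and *Qk* at 0.64 on the log2 scale. The 9 members named above then had log2 fold changes of 0.59 to 1.11, and *Larp4* had -0.45. *Prrc2a*, *Prrc2b*, *Igf2bp2*, *Khsrp*, *Upf1*, *Ybx1* and *Larp4* lost their calls, at limma adjusted p of 0.0510 to 0.0788. With the correction and the block together 15 members were higher and 1 was lower (backgrounds 8.59% and 14%).

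**Figure D4:**
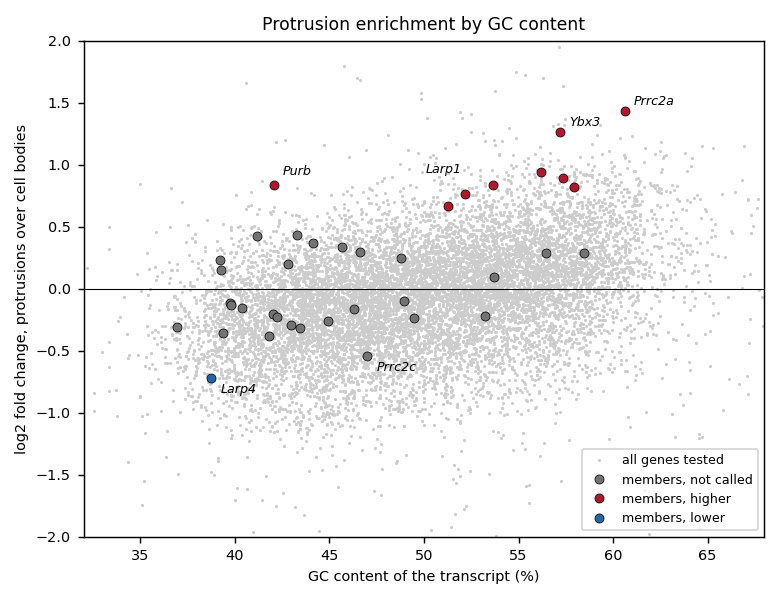
GC content of the longest coding transcript (x axis, percent) against log2 fold change between fractions, positive in protrusions (y axis), for the genes tested (gray dots, 50 genes outside the axes) and the members that were higher (red), lower (blue) or not called (dark gray). The 87 genes tested without a GC value are not drawn. Of the 9 red points 8 lie above 50% GC, and *Purb* lies at 42.0%.

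Purine-rich stretches of 3′ UTRs are known from other mRNAs that reach protrusions, so those of the members were examined. The 3′ UTRs of the 38 members had a median length of 2712 bases, beside 1174 bases over the 10500 genes tested that have an annotated one. The motif GAAGA, searched on the mRNA strand with overlapping matches counted, occurred at a median of 1.49 per kilobase in the members and 1.22 in all genes. Its density had a Spearman's rho with log2 fold change of -0.04 over the members and -0.04 over all genes. A window of 30 bases with at least 28 G or A, and at least 8 of each, was present in 6 of the 38 members (15.8%) and in 670 of the 10500 genes (6.38%). Longer 3′ UTRs offer more windows, and the members' 3′ UTRs are longer. The part of this length in the share with a window was not tested.

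The richest such window of each of the 6 mRNAs is shown, so that the order of G and A in it can be read, 5′ to 3′ on the mRNA strand, with G and A in capitals and other bases in lower case.
Purb: GtGGGAGGGGGGAtAGGGAAGGGAGAGAGG
Upf1: cGAGGAGAGGAGAGGAAAGAGGAGcGAGAG
Larp4: tAAAGAAAGAAAAGGAAAAGGAAAGAAAGA
Larp4b: AGAAAGAAAGAAAGAAGAAGAAGAAAAcAG
Serbp1: GAGAGAGAGAGAGAGAGAGAGAGAGAGAGA
Ddx6: AAGGAAGGAGGAAAAGAAAAGAAGGGGAGA

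These windows were in mRNAs of every outcome. *Purb* (chr11:6469968-6469997, minus strand) and *Upf1* (chr8:70332325-70332354, minus strand) were higher in protrusions, *Larp4* (chr15:100013384-100013413, plus strand) was lower, and the other 3 were not called. Those 3 were *Larp4b* (chr13:9173109-9173138), *Serbp1* (chr6:67291950-67291979) and *Ddx6* (chr9:44636755-44636784), all on the plus strand. The windows of *Upf1* and *Ddx6* began 129 and 274 bases into the 3′ UTR, and the other 4 began 1210 or more bases in. Those of *Larp4b* and *Serbp1* lie beyond the end of the gene in the deposited table, so reads there may not have been counted. The window of *Purb* held 20 G and 8 A and that of *Upf1* 16 G and 12 A, while those of *Larp4* and *Larp4b* each held 8 G and 21 A.

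Exons of 18 members overlap another annotated gene, and the sources used here do not say whether reads were counted by strand. Of the called members these are *Khsrp*, *Larp4*, *Prrc2b*, *Purb* and *Upf1*. Where the overlapping gene of a called member was in the table, it stood at or under 0.419 TPM in every library. The fewest reads of a called member in any library were 1235, for *Upf1*.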

How the data were processed

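RNA-seq of cell bodies and protrusions of YUMM1.7 cells was analysed from 1 deposited table of 16537 genes. Reads were strand-specific and single, from rRNA-depleted libraries. The table gives TPM values of each library, computed by the authors, with gene bounds on mm10, and their own differential expression (log2 fold change, likelihood ratio score, p-value and FDR from edgeR), which was not used. The authors' deposited mean log2 CPM served only to set the scale of recovered reads. The paper's methods name TopHat 2.0.12, and the submitters' processing notes name STAR and featureCounts. Per-sample columns left unused numbered 0.

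Genes had to average 1 TPM or more, which left 11400. Their log2(TPM + 0.5) values entered a limma 3.58.1 trend fit under R 4.3.3 (two-sided, Benjamini-Hochberg adjusted) with 2 residual degrees of freedom. The spread estimated over all genes added 3.81 prior degrees of freedom, and 10.2 in the fit with the block. Ratios of a gene's TPM give whole reads in all 16537 genes (within 0.01 reads), which served for depth and for a limma voom alternative. The supplementary table heads the libraries of a replicate as paired. Libraries of the same number deviated together from their fraction means (r = 0.45 over 11400 genes). The replicate was therefore taken to pair the libraries in the fits with the block. The main fit, with its SEs, intervals and calls, held the fraction alone and no block. Blocked values stand where they changed a call. Paralog differences have 95% intervals from the SEs of both genes. GC content, 3′ UTRs and windows came from GENCODE vM21 (GRCm38, the same build), matched for 16352 genes and all 41 members. Gene starts were printed counting from 1. The fits and the read recovery were tested on simulated data. In the fits false calls made up a larger share of the calls than the nominal rate, and more so with the block.

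The members, families and lists were chosen with earlier results of these data known. All members of families were named; of the 14 others, those called with or without the block and the 3 highest and 3 lowest by log2 fold change; of the partners, the 3 with the smallest p in each direction. The names of 8 further members, the 30-base window and voom with the block were added after values were seen. Alternatives were the pseudocount, the TPM minimum, the trend, centring, GC correction, the block, recovered reads and leaving out each library. Protein sequences were not used here, and part of the genotype of the line is not reported here.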

Additional observations from a re-analysis of the deposited data

How the results depend on the processing

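The counts of 9 members higher and 1 lower were the same at pseudocounts of 0.1 and 1, with a minimum mean TPM of 5 and with recovered reads in limma voom, while the shares of all genes called higher and lower were 2.88% to 3.14% and 4.17% to 4.46% at those pseudocounts, 5.39% and 8.55% at the TPM minimum and 6.80% and 7.80% with voom. Without a TPM minimum both counts were 0 (limma), as they were without the trend, and in both fits no gene of the table was called. At an unadjusted p under 0.05, the fit without a minimum had 14 members higher and 3 lower (34.1% and 7.32%, beside 8.88% and 13.1% of all genes). The fit without the trend had 11 and 3 (28.9% and 7.89%, beside 11.5% and 18.4%). Centring on the median gene, which moved the median of all genes from -0.07 to 0.00, gave 8 and 1 (backgrounds 4.22% and 4.89%). GC correction gave 4 and 0 (backgrounds 1.62% and 2.66%), or 15 and 2 unadjusted (beside 11.5% and 17.2%). With the replicate block it gave 15 and 1 (backgrounds 8.59% and 14%). The replicate block alone gave 10 and 2 (backgrounds 8.08% and 13.3%). Voom with the block, added after the data were seen, gave 13 and 2 (backgrounds 16.1% and 18%). The second lower member was *Tardbp* with the block alone and *Prrc2c* in voom with the block (limma adjusted p = 0.00939). Besides *Qk* and *Tardbp*, the block alone changed no call of a member. Leaving out each library gave a lowest and highest count of 0 in both directions. The cause of these changes was not tested, except that fits without 1 library have fewer samples.

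The 10 called members kept their sign under every alternative. Some members that were not called changed sign. After GC correction, with or without the block, *Mbnl1* was at 0.14, *Mbnl2* at 0.078, *Syncrip* at 0.0027, *Ptbp1* at -0.0054 and *Serbp1* at 0.12 on the log2 scale. Leaving out each library, *Stau2* ranged from -0.047 to 0.45, *Mbnl1* from -0.37 to 0.14, *Mbnl2* from -0.38 to 0.066 and *Ptbp1* from -0.046 to 0.24. Adjusted p of the 10 called members ran from 0.0576 to 0.212 (limma) without 1 library. Among paralog differences, GC correction moved that of *Fmr1* from *Fxr2* from -0.06 to 0.46 and that of *Larp1b* from *Larp4* from 1.01 to 0.55. Depth limited the comparison for *Larp6*, *Igf2bp1* and *Igf2bp3*, at 12 or fewer reads in each library.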
